A study of Mus musculus with 6 samples.

Results

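The Slc25 genes encode the mitochondrial carriers, and they were followed here in subcutaneous fat of wild type and mitoNEET transgenic mice. Members were all probes whose platform gene symbol was Slc25a followed by a number, which gave 76 probes for 46 genes among 19057 named genes on the array. For each gene the probe of highest 6-array mean was used if it lay above background on 3 or more of the 6 arrays, which 34 of the 46 genes did. The tissue came from male FVB mice aged 12 weeks, with 3 Illumina bead arrays of wild type tissue and 3 of tissue labelled MitoNEET-transgenic. MitoNEET is the product of Cisd1 and sits on the outer membrane of mitochondria, where it holds an iron-sulfur cluster. Every sample description carries the name aP2, wild type samples included. The aP2 gene (Fabp4) is the source of a promoter often used to drive transgenes in fat cells, but the labels do not state the promoter of this transgene. They also do not say that each array came from a separate mouse, and the p-values therefore rest on the spread among these samples alone, which may be technical.

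Carriers of this family lie almost all in the inner mitochondrial membrane, which is otherwise closed to most metabolites. Each exchanges a small molecule between matrix and cytosol, such as ADP for ATP, phosphate, citrate, amino acids, acylcarnitines, iron or a cofactor. In fat cells they link the mitochondrion to fatty acid synthesis (citrate leaves, and the cytosol cleaves it to acetyl-CoA), to fatty acid oxidation (acylcarnitine enters) and to heat production, for which brown and beige fat use Ucp1, a family member under another symbol.

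Values are array intensities after the authors' normalization, given as mean ± SD of 3 arrays, and changes are log2 differences (transgenic minus wild type), each with limma's standard error. All 6 arrays had nearly the same distribution, with medians between 54.76 and 54.79, and 14959 features passed the same filter. Cisd1 itself read 1035, 773 and 937 on wild type arrays 1 to 3 and 1090.5, 1106 and 1060 on transgenic arrays 1 to 3. The groups did not overlap, yet the log2 difference of 0.26 (SE 0.11) did not pass (limma adjusted p = 0.163), and whether the probe reads the transgene is not known. The arrays also differed in cell type markers. All 8 measured lymphocyte markers were called lower in transgenic tissue, beside 8.26% of all features. Their median log2 was −1.97, and their summed intensity 5420 to 9943 on wild type and 734 to 2904 on transgenic arrays. Of 9 genes listed as white adipocyte markers 4 were higher (Pparg, Slc2a4, Lep and Plin1), beside 5.11% of all features. The median of the 9 was 0.28, and their summed intensity 66373 to 71658 against 79076 to 82259. Whether these genes tell white from brown adipocytes was not tested. Of 7 brown adipocyte markers Ucp1 and Cox7a1 were lower, beside 8.26% of all features, and 5 did not pass. These 7 had a median of −0.25 and a summed intensity of 39016 to 42428 against 31266 to 37496. Cidea, the 1 marker above 0, differed by 0.26 on the log2 scale (SE 0.12, limma adjusted p = 0.182). Of 7 endothelial markers Cdh5 was higher, beside 5.11% of all features (median 0.31, summed intensity 4074 to 6346 against 6241 to 6625). Wild type array 2 stood apart with a high level of skeletal muscle genes (12 markers, mean log2 deviation 3.02, against −1.23 to −0.12 on the other 5 arrays). The part of these differences in the results below was not tested, and in whole tissue fewer cells of a type cannot be told apart from less RNA per cell.

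The carrier family as a whole moved little. Of 34 measured carriers 3 were higher in transgenic tissue (Slc25a16, Slc25a33 and Slc25a47), 2 were lower (Slc25a37 and Slc25a42) and 29 did not pass at a limma adjusted p of 0.05. That is 14.7% called, beside 13.4% of all 14959 features (5.11% higher and 8.26% lower), so the share is near the background. The groups did not overlap in 11 carriers (32.4%), beside 35.9% of all features: 8 carriers lay higher in transgenic tissue, beside 18.5%, and 3 lower, beside 17.4%. The median log2 change was 0.08, against 0.03 over all features, with 22 carriers above 0 and 12 below, beside 45% of all features below 0. No carrier changed by 2-fold or more, and the widest difference was 1.58-fold.

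**Figure D1:**
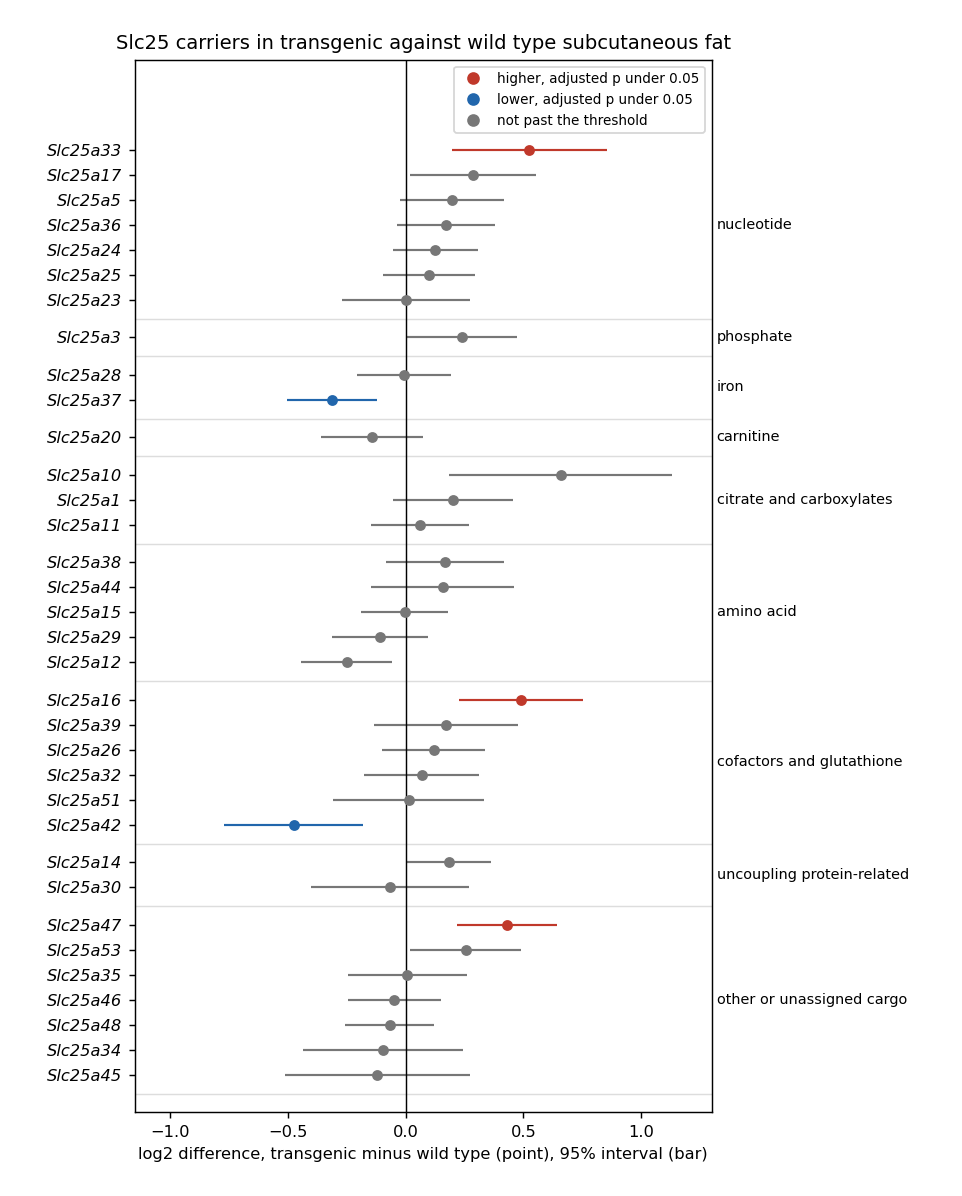
Log2 difference of each of the 34 measured carriers, transgenic minus wild type (points), with 95% intervals of limma's fit (bars), grouped by cargo. The 3 red points (higher) and 2 blue points (lower) are past an adjusted p of 0.05, and all points lie between −0.48 and 0.66.

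The 5 calls rested on particular arrays. The number of carriers called was 2 without wild type array 1, 4 without wild type array 3, and 0 without wild type array 2 or without any of the 3 transgenic arrays. When the background level was subtracted and an offset of 16 added before log2, 1 carrier passed, while the offset alone kept all 5. When each array was centred on its median, 3 passed, all of them higher. Over all features centring gave 1116 higher and 1085 lower calls, against 765 and 1236 without it. For the 29 carriers not called, 26 of the 95% intervals lay within 0.5 of no change on the log2 scale. The exception with the widest range was Slc25a10, at 0.19 to 1.13.

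**Figure D2:**
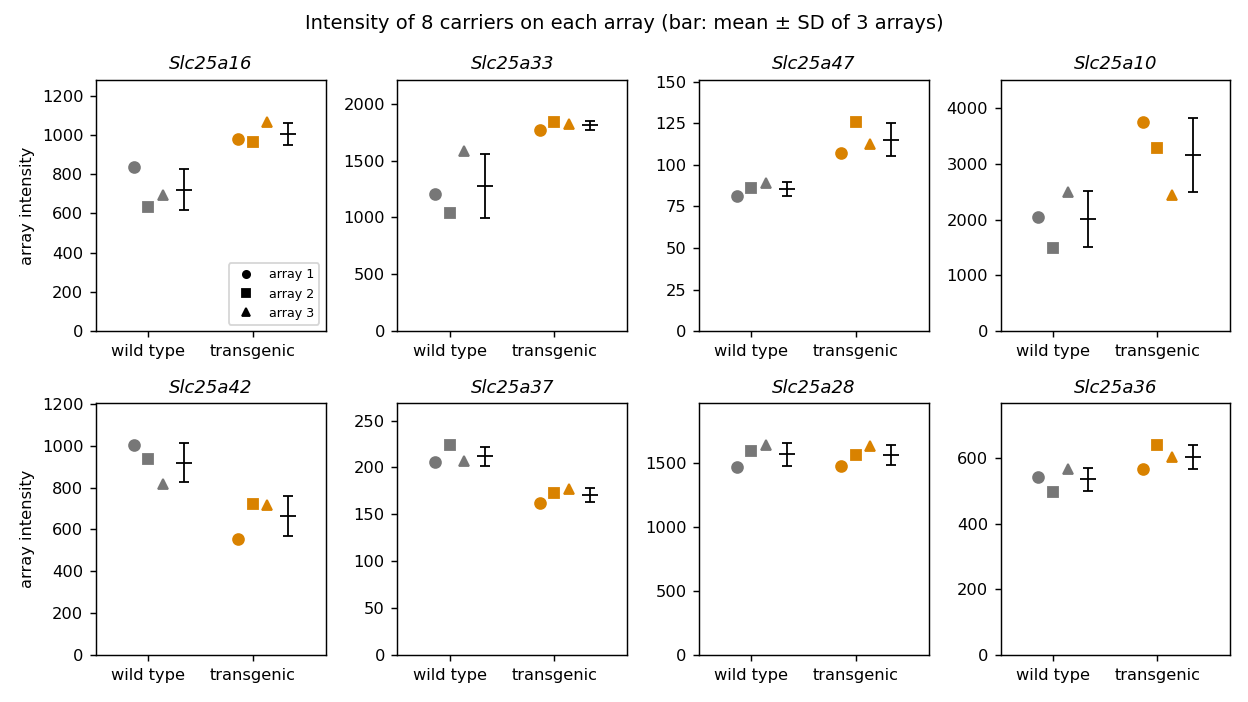
Array intensity (linear axis from 0) of 8 carriers on each of 3 wild type and 3 transgenic arrays, with mean ± SD of each group beside the points. Slc25a16, Slc25a33 and Slc25a47 lie higher and Slc25a42 and Slc25a37 lower on all 3 transgenic arrays, while Slc25a10, Slc25a28 and Slc25a36 overlap or touch between groups.

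Carriers tied to coenzyme A went in opposite directions. Slc25a16 (Entrez Gene 73132), linked to mitochondrial coenzyme A in yeast and human work, read 837, 631 and 695 on wild type arrays 1 to 3 and 980, 966 and 1068 on transgenic arrays 1 to 3. Each transgenic array exceeded every wild type array, a rise from 721 ± 106 to 1005 ± 55.2 (SD, n = 3; 1.40-fold, log2 0.49, SE 0.12, limma adjusted p = 0.0316). Slc25a42 (Entrez Gene 73095), a carrier of coenzyme A into the matrix, read 1002, 938 and 817 on wild type arrays and 552, 720 and 718 on transgenic arrays. Here every transgenic array lay below every wild type array, a fall from 919 ± 93.8 to 663 ± 96.3 (1.39-fold, log2 −0.48, SE 0.13, limma adjusted p = 0.0456). Transgenic array 1, which was also lowest in lymphocyte markers, was the lowest for Slc25a42. Without it the change was −0.35 (adjusted p = 0.124).

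The log2 ratio of Slc25a16 to Slc25a42 within each array put the pair's divergence in a single value. Relative to its wild type mean the ratio was 0.10, −0.22 and 0.12 on wild type arrays and 1.18, 0.78 and 0.93 on transgenic arrays. The shift of 0.96 was the widest of 6 carrier pairs compared. An exact permutation test gave p = 0.1 (two-sided, 0.2 adjusted over the 6 pairs), the lowest value that 3 against 3 arrays can reach. Since Slc25a16 was higher and Slc25a42 lower on every transgenic array, the ratio had to separate the groups. This p-value was therefore fixed in advance and adds nothing to the results of the 2 genes. Slc25a42 had 2 other kept probes, both near background, with log2 differences of −0.10 and −0.003. The mean of its 3 kept probes changed by −0.19 and did not pass (adjusted p = 0.225). Slc25a16 had a single probe on the array. Its call was lost in 5 of 6 fits that leave out 1 array, as was that of Slc25a42, with log2 values of 0.40 to 0.60 and −0.56 to −0.35.

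The stretches just upstream of both genes are shown because this pair diverged most. Each is the 250 bases before the annotated start in GRCm38.p6, from RefSeq, read 5′ to 3′ along the gene. Capitals mark matches, on either strand, to a GC box (GGGCGG) or a CCAAT box (CCAAT); none of the other motifs searched (an E-box, CACGTG; a CRE, TGACGTCA; a TATA box, TATAAA; an ETS site, CCGGAAGT; and the PPAR element DR1) occurs in these 2 stretches. The Slc25a16 stretch lies at chr10:62920383-62920632, plus strand, and the Slc25a42 stretch at chr8:70212282-70212531, minus strand.
Slc25a16: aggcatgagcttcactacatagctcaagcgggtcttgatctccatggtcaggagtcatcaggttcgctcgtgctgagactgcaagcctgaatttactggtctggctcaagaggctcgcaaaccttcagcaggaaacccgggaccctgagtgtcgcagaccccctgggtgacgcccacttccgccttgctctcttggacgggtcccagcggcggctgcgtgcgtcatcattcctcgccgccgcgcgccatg
Slc25a42: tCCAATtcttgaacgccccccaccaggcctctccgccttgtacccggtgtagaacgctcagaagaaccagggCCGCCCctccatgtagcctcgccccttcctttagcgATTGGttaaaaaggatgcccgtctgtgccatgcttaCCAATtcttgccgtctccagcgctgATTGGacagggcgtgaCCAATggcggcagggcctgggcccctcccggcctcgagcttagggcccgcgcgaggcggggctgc
The Slc25a42 stretch holds 5 CCAAT boxes and 1 GC box, and the Slc25a16 stretch holds neither motif. At least 5 CCAAT boxes occur in 0.213% of the 32851 such stretches searched, and 33.8% hold at least 1. Of the 46 stretches upstream of Slc25 genes 21 hold at least 1 (45.7%), and 1 holds at least 5. The count of 5 was taken from this stretch, so its share is not a test of rarity. A match is a description of letters and not a binding site.

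Among the other cofactor and glutathione carriers none passed. Slc25a39, required for mitochondrial glutathione import, read 904 ± 158 and 1008 ± 63.0 (log2 0.17, SE 0.13, adjusted p = 0.428), with wild type array 2 alone low at 726 against 936 to 1053 on the other 5 arrays. Slc25a26, the S-adenosylmethionine carrier, had a log2 difference of 0.12 and Slc25a32, the folate and FAD carrier, of 0.07. Slc25a51, the NAD carrier, read 110 on average in both groups (log2 0.01, adjusted p = 0.959).

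Nucleotide carriers held 1 call, in Slc25a33. All 7 measured members had a log2 difference above 0 (median 0.17, range 0.002 to 0.52), beside 55.0% of all features. Of these members 6 did not pass, and 13.4% of all features were called. Their mean log2 deviation was −0.05, −0.25 and −0.002 on wild type arrays 1 to 3 and 0.10, 0.14 and 0.06 on transgenic arrays, so wild type array 2 was the lowest. Slc25a33 (Entrez Gene 70556), a carrier of pyrimidine nucleotides that insulin-like growth factor is known to induce in human cells, read 1207, 1038 and 1587 on wild type arrays and 1765, 1842 and 1820 on transgenic arrays. The transgenic arrays lay close together and above all wild type arrays, whose highest was array 3. The rise was from 1277 ± 281 to 1809 ± 39.9 (1.44-fold, log2 0.52, SE 0.14, limma adjusted p = 0.0471), and its call held in 1 of 6 fits with 1 array left out, the fit without wild type array 3 (log2 0.69). Without wild type array 2 it was 0.39 (adjusted p = 0.146).

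Slc25a36, the other pyrimidine nucleotide carrier, read 542, 497 and 566 on wild type arrays and 566, 638 and 603 on transgenic arrays. The groups met at wild type array 3 and transgenic array 1 (log2 0.17, SE 0.09, adjusted p = 0.236), and all 3 of its probes were above 0, at 0.09 to 0.17. The ratio of Slc25a33 to Slc25a36 was higher by 0.35 in transgenic tissue without overlap between groups. Its two-sided exact permutation p was 0.1 (0.2 adjusted over 6 pairs), the lowest value that 3 against 3 arrays can reach. Slc25a33 alone already separated the groups, so the ratio is no independent result beside the rise of Slc25a33. The upstream stretch of Slc25a33 (chr4:149774268-149774517, minus strand, GRCm38.p6) is shown because this was the widest rise called in the family. Capitals again mark GC and CCAAT boxes, and also an E-box (CACGTG), which lies 8 to 3 bases before the start.
Slc25a33: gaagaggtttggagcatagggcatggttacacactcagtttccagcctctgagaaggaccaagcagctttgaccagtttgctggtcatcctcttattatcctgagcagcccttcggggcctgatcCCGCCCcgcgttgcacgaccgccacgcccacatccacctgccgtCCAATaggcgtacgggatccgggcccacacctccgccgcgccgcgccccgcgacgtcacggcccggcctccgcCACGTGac
An E-box occurs in 6.02% of all stretches of this length and in 8 of the 46 upstream of Slc25 genes. GC boxes occur in 32.7% of all stretches and in 32 of those 46. The 46 stretches belong to 36 carriers and several share a gene.

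The ADP/ATP carriers, which hand mitochondrial ATP to the cytosol, were read through Slc25a5 alone. Slc25a5 (ANT2) read 8209, 7586 and 9000 on wild type arrays and 9955, 9603 and 8817 on transgenic arrays, from 8265 ± 709 to 9458 ± 583 (log2 0.20, SE 0.10, adjusted p = 0.203). Transgenic array 3 fell below wild type array 3, so the groups overlapped. The probe of Slc25a4 (ANT1), the form abundant in muscle, read 39.4 to 44.4 on all arrays, below the background level of 47.8. It read 42.02 on wild type array 2, where muscle genes were high. Slc25a31, the testis form, was also not above background. The ATP-Mg/phosphate carriers Slc25a23, Slc25a24 and Slc25a25, which adjust the matrix nucleotide pool, differed by 0.002, 0.13 and 0.10 on the log2 scale (adjusted p of 0.319 or more). The peroxisomal carrier Slc25a17 was higher on every transgenic array (133 ± 19.7 against 161 ± 6.62, log2 0.29) but did not pass (SE 0.12, adjusted p = 0.138).

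Slc25a3 brings inorganic phosphate into the matrix for ATP synthesis. It read 2598, 2285 and 2836 on wild type arrays and 2894, 2950 and 3239 on transgenic arrays. The groups did not overlap, and the log2 difference was 0.24 (SE 0.10), which did not pass (limma adjusted p = 0.155; unadjusted p = 0.0476). Its other probe gave 0.20. The 14 measured ATP synthase genes, whose substrates Slc25a3 and the ADP/ATP carriers supply, held 0 calls by limma, beside 13.4% of all features. Their median was 0.06, and 1 had an unadjusted p under 0.05, beside 31.5%.

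Of the 2 iron carriers 1 fell, beside 8.26% of all features, and 1 did not pass. Slc25a37 (mitoferrin 1; Entrez Gene 67712), which imports iron for haem and iron-sulfur cluster synthesis, read 205, 223.5 and 207 on wild type arrays and 162, 173 and 177 on transgenic arrays. Every transgenic array lay below every wild type array (1.24-fold lower, log2 −0.31, SE 0.08, 95% interval −0.50 to −0.12, limma adjusted p = 0.0438). The call was lost in all 6 fits that leave out 1 array (log2 −0.34 to −0.27, adjusted p 0.0573 to 0.157), and with centred arrays (−0.28, adjusted p = 0.0573). Slc25a28 (mitoferrin 2), its broadly expressed relative, read 1468, 1598.5 and 1639 on wild type arrays and 1481, 1561 and 1638 on transgenic arrays. These ranges almost coincide, with a log2 difference of −0.01 and a 95% interval of −0.21 to 0.19.

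The ratio of Slc25a37 to Slc25a28 separated the groups. Relative to the wild type mean it was 0.05, 0.05 and −0.10 on wild type arrays and −0.31, −0.29 and −0.32 on transgenic arrays. The shift of −0.31 had an exact permutation p = 0.1 (two-sided, 0.2 adjusted over 6 pairs), the lowest value that 3 against 3 arrays can reach. Slc25a37 alone already separated the groups and Slc25a28 hardly changed, so the ratio largely repeats the result of Slc25a37. A ratio within an array shows unequal change of 2 probes, and centring turned the value of Slc25a28 to 0.03. Of 7 measured genes of mitochondrial iron use none was called by limma, beside 13.4% of all features, and 3 had an unadjusted p under 0.05, beside 31.5%. All 7 had log2 differences above 0 (median 0.25), beside 55.0% of all features, and in 5 of them every transgenic array lay above every wild type array, beside 18.5%. Examples were Fech, the ferrochelatase gene (log2 0.34, SE 0.12, adjusted p = 0.101), Alas1, the first enzyme of haem synthesis (0.29, SE 0.09, adjusted p = 0.0752), and Nfs1, the cysteine desulfurase gene (0.25, SE 0.09, adjusted p = 0.1003). Cisd1 is itself among the 7. The mean log2 deviation of the 7 was −0.08, −0.21 and −0.007 on wild type arrays 1 to 3 and 0.10, 0.12 and 0.08 on transgenic arrays.

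**Figure D3:**
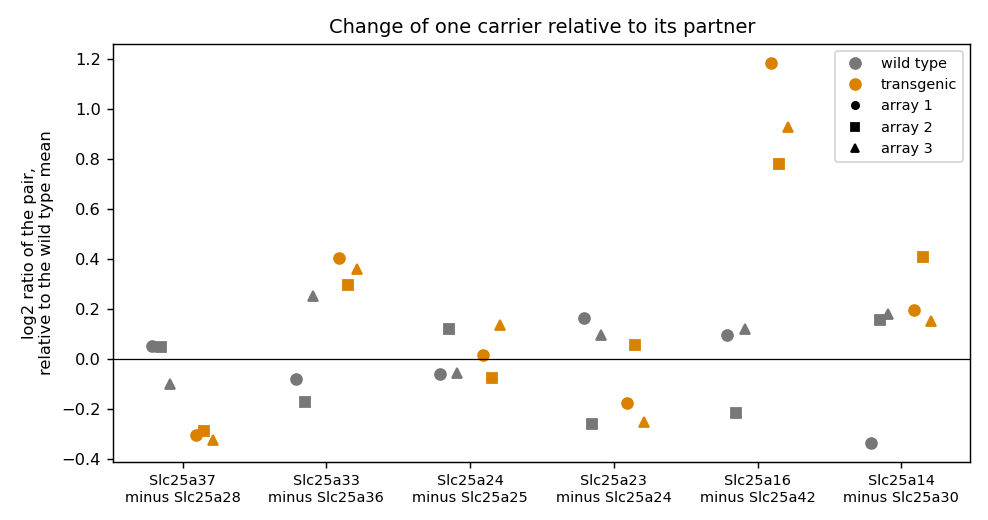
Log2 ratio of 6 carrier pairs on each array, relative to the wild type mean of the pair. Grey points are wild type and orange points transgenic arrays, with the array number shown by shape. The groups are separate for Slc25a37 against Slc25a28, Slc25a33 against Slc25a36 and Slc25a16 against Slc25a42, and overlap for the other 3 pairs.

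Of the carriers of citrate and other carboxylates none passed, though Slc25a10 had the widest difference in the family. Slc25a10, which exchanges malate or succinate for phosphate, read 2048, 1500 and 2498 on wild type arrays and 3760, 3288 and 2442 on transgenic arrays. Transgenic arrays 1 and 2 lay above all others, and transgenic array 3 fell just under wild type array 3 (2016 ± 500 against 3163 ± 668, 1.58-fold, log2 0.66, SE 0.21, limma adjusted p = 0.0696). It passed in 1 of 6 fits that leave out 1 array, without wild type array 3 (log2 0.83, adjusted p = 0.038), and in 1 of 11 other settings, array weights (adjusted p = 0.0332). It was 0.46 without wild type array 2 (adjusted p = 0.214) and 0.33 without both that array and transgenic array 1 (adjusted p = 0.399). Slc25a1, the citrate carrier, read 4560, 5100 and 5806 on wild type arrays and 6465, 5630 and 5619 on transgenic arrays (log2 0.20, SE 0.11, adjusted p = 0.263). Wild type array 3 exceeded 2 transgenic arrays, and the other probe of Slc25a1 gave 0.22. Slc25a11, the oxoglutarate/malate carrier, differed by 0.06 (adjusted p = 0.702).

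Enzymes that make or use citrate were mixed. Of 5 measured genes 1 was higher, beside 5.11% of all features. This was Idh1, the cytosolic isocitrate dehydrogenase (2745 ± 113 to 3431 ± 200, log2 0.32, SE 0.09, limma adjusted p = 0.043). Its call was lost in 5 of 6 fits with 1 array left out (log2 0.28 to 0.36). Pcx, pyruvate carboxylase, differed by 0.49 on the log2 scale (SE 0.16, adjusted p = 0.0736) and Fasn, fatty acid synthase, of 0.25 (SE 0.09, adjusted p = 0.108). Acly, which cleaves exported citrate, differed by −0.12 (adjusted p = 0.632).

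Slc25a20, which brings acylcarnitines into the matrix for oxidation, read 6626, 6234 and 6537 on wild type arrays and 5262, 6330 and 6017 on transgenic arrays. The groups overlapped, with transgenic array 1 the lowest (log2 −0.14, SE 0.09, 95% interval −0.36 to 0.07, limma adjusted p = 0.341). A second, dimmer probe gave 0.07, so the sign was not settled. Of 4 measured enzymes of the carnitine shuttle 1 was lower, beside 8.26% of all features. This was Cpt1b, which fell from 2391 ± 73.7 to 1620 ± 174 (1.48-fold, log2 −0.57, SE 0.10, limma adjusted p = 0.0168). Its call was lost without wild type array 2 or transgenic array 2 (log2 −0.63 to −0.48 over the 6 single exclusions). Cpt2, the matrix enzyme that acts after Slc25a20, differed by 0.15 (adjusted p = 0.353), and Cpt1a read close to background, at 55.5 and 60.4 on average.

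Amino acid carriers held no call among 5 measured members, beside 13.4% of all features, and 1 had an unadjusted p under 0.05 (limma), beside 31.5%. That member was Slc25a12 (aralar), the aspartate/glutamate carrier of the malate-aspartate shuttle. It read 133, 144 and 129 on wild type arrays and 112, 111 and 119 on transgenic arrays. All transgenic arrays were lower (log2 −0.25, SE 0.08, adjusted p = 0.0851), and it passed with array weights (−0.27, adjusted p = 0.0481) but in none of the other 10 settings and none of the 6 single exclusions (adjusted p up to 0.452). Its relative Slc25a13 (citrin) was not above background. Got2, the mitochondrial aspartate aminotransferase that feeds this carrier, read 1500.4, 1857 and 1503 on wild type arrays and 835, 908 and 1045 on transgenic arrays. It fell without overlap (1.74-fold, log2 −0.80, SE 0.12, limma adjusted p = 0.0145) and lost its call only without transgenic array 2 among the 6 single exclusions (log2 −0.89 to −0.70). Gpd2, of the glycerol phosphate shuttle, fell 1.23-fold (log2 −0.30, SE 0.08, adjusted p = 0.0497) and lost its call in all 6 and in 6 of 11 other settings. The mean of its kept probes changed by −0.13. Of 5 measured shuttle genes 2 were thus lower, beside 8.26% of all features. The other 3 (Mdh1, Mdh2 and Gpd1) did not pass, at 0.29, −0.02 and 0.13.

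Slc25a44, the branched-chain amino acid carrier of thermogenic fat, read 829, 758 and 875 on wild type arrays and 1087, 923 and 760 on transgenic arrays. Transgenic array 3 was as low as the lowest wild type array (log2 0.16, SE 0.13, adjusted p = 0.465). The enzymes that oxidise its cargo were higher in part: 3 of 9 measured genes rose, beside 5.11% of all features. All 9 had a log2 difference above 0 (median 0.19), beside 55.0%. Their mean log2 deviation was −0.007, −0.32 and −0.10 on wild type arrays 1 to 3 and 0.19, 0.12 and 0.12 on transgenic arrays, so wild type array 2 was the lowest. Mccc1 and Mccc2, the subunits of methylcrotonyl-CoA carboxylase, rose by 0.66 (SE 0.13, adjusted p = 0.0206) and 0.47 (SE 0.12, adjusted p = 0.0348), and Ivd, isovaleryl-CoA dehydrogenase, by 0.53 (SE 0.11, adjusted p = 0.0208). With 1 array left out Mccc1 lost its call in 2 fits (log2 0.51 to 0.75), Ivd in 3 (0.46 to 0.62; 0.31 as the mean of its kept probes, where it kept its call) and Mccc2 in 4 (0.35 to 0.56). The glycine carrier Slc25a38, needed for haem synthesis, differed by 0.17 (adjusted p = 0.341), with its 3 probes at 0.07 to 0.17. The ornithine carrier Slc25a15 and the basic amino acid carrier Slc25a29 differed by −0.005 and −0.11.

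Ucp1 fell, and the uncoupling protein relatives under Slc25 symbols did not pass. Ucp1, the proton carrier of brown and beige fat, read 5878, 6905 and 6717 on wild type arrays and 2997, 2182 and 2914 on transgenic arrays (log2 −1.28, SE 0.13, limma adjusted p = 0.0145), and lost its call without transgenic array 2 alone (log2 −1.36 to −1.13 over single exclusions). Slc25a14 (UCP5) was slightly higher on every transgenic array (86.5 ± 0.438 against 98.3 ± 4.18, log2 0.18, SE 0.08, adjusted p = 0.152). Slc25a30 (KMCP1) differed by −0.07 (SE 0.15, adjusted p = 0.795), with wild type array 1 at 450 and the other 5 arrays at 313 to 373. Slc25a27 (UCP4), a brain form, was not above background. Ucp3 differed by 0.09 (adjusted p = 0.553). Mtch1 and Mtch2, outer membrane relatives of the family, were higher on every transgenic array, at 0.26 (SE 0.08, adjusted p = 0.0535) and 0.22 (SE 0.10, adjusted p = 0.182), without passing.

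Among carriers of other or unassigned cargo Slc25a47 rose. Slc25a47 (Entrez Gene 104910), known mainly from liver, read 81.0, 86.0 and 89.0 on wild type arrays and 107, 126 and 112 on transgenic arrays. The readings were dim but did not overlap (85.3 ± 4.04 against 115 ± 9.75, 1.35-fold, log2 0.43, SE 0.09, limma adjusted p = 0.0244). With the background level subtracted and an offset of 16 added the log2 value was 0.63. It was the carrier of smallest p and the only carrier called in that setting. It kept its call without wild type array 1 or 3 and lost it in the other 4 single exclusions (log2 0.36 to 0.48, adjusted p up to 0.0926). Its upstream stretch (chr12:108850879-108851128, plus strand, GRCm38.p6) is also shown. It holds 1 CCAAT box and, like that of Slc25a16, no GC box.
Slc25a47: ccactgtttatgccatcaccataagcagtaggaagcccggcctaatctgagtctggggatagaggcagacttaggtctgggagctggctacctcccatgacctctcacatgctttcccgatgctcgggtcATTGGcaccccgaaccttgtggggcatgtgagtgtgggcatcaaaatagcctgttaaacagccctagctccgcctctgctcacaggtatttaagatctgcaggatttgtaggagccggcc
Its share of G and C was 54.4%, against 60.8%, 63.6% and 64.4% for Slc25a16, Slc25a42 and Slc25a33. Slc25a53 was also higher on every transgenic array (150 ± 18.0 against 178 ± 2.56, log2 0.25) without passing (adjusted p = 0.133). Slc25a34, Slc25a35, Slc25a45, Slc25a46 and Slc25a48 differed by −0.12 to 0.007, with adjusted p-values of 0.624 or more. Slc25a46, an outer membrane protein of mitochondrial dynamics, was just inside the filter, above background on 3 arrays at 50.6 to 57.5.

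The 12 carriers not above background were Slc25a2, Slc25a4, Slc25a13, Slc25a18, Slc25a21, Slc25a22, Slc25a27, Slc25a31, Slc25a40, Slc25a41, Slc25a43 and Slc25a54. Their 19 probes read 36.7 to 61.7 on any array, against a background threshold of 55.7. Slc25a18, a glutamate carrier, and Slc25a43 were just outside the filter, above the threshold on 2 arrays each. Weak expression and a poor probe cannot be told apart in such readings. Of the 34 measured carriers 33 were above background on all 6 arrays and none was above it in 1 group alone. Of 9 carriers with several kept probes, 7 had all probes on the same side of 0 and Slc25a15 and Slc25a20 did not.

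Wild type array 2 gave the lowest reading of 14 of 34 carriers (41.2%), beside 26.3% of all features, and the family's mean log2 deviation there was −0.13, against −0.02 to 0.06 on the other 5 arrays. The carriers did not all follow: the mean of the 2 iron carriers was 0.13 there, and Slc25a12 and Slc25a37 had their highest reading on it. White adipocyte markers were also lowest there (−0.32), and muscle and lymphocyte markers highest (3.02 and 1.27). Without wild type array 2 the carriers' median change was 0.05, against 0.08 with it. The spread between replicate arrays was ordinary, with a median within-group SD of 0.13 on the log2 scale for carriers and 0.12 for all features.

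**Figure D4:**
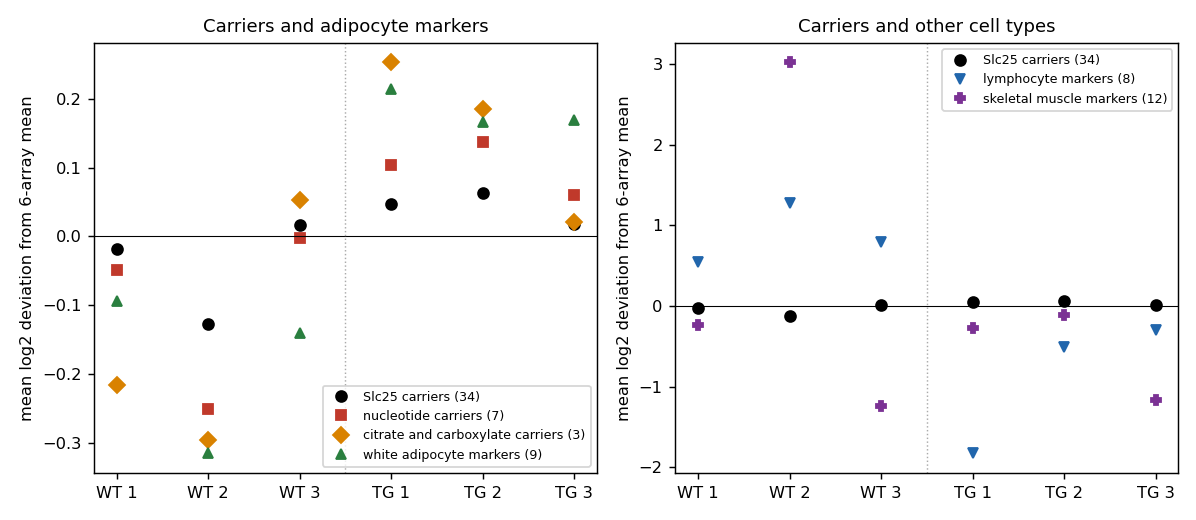
Mean log2 deviation from the 6-array mean on each wild type (WT) and transgenic (TG) array, for the carriers beside white adipocyte markers (left) and beside lymphocyte and skeletal muscle markers (right); numbers in the legend count genes. The carriers stay between −0.13 and 0.06, while muscle markers reach 3.02 on wild type array 2.

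The machinery that places carriers in the inner membrane held no call. Of 11 measured import genes 0 were called by limma, beside 13.4% of all features, and 2 had an unadjusted p under 0.05, beside 31.5%. Their median log2 change was 0.03, with a range of −0.22 to 0.22. Tomm40, the outer membrane pore, differed by 0.20 (SE 0.09, adjusted p = 0.156) and Agk, a subunit of the inner membrane carrier translocase, by −0.22 (SE 0.10, adjusted p = 0.151). The 3 porin genes, through which metabolites reach the carriers, and the 6 fission and fusion genes held no call by limma. In each list 1 gene had an unadjusted p under 0.05 (Vdac3 0.26 and Opa1 0.22), beside the same 13.4% and 31.5% of all features.

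**Figure D5:**
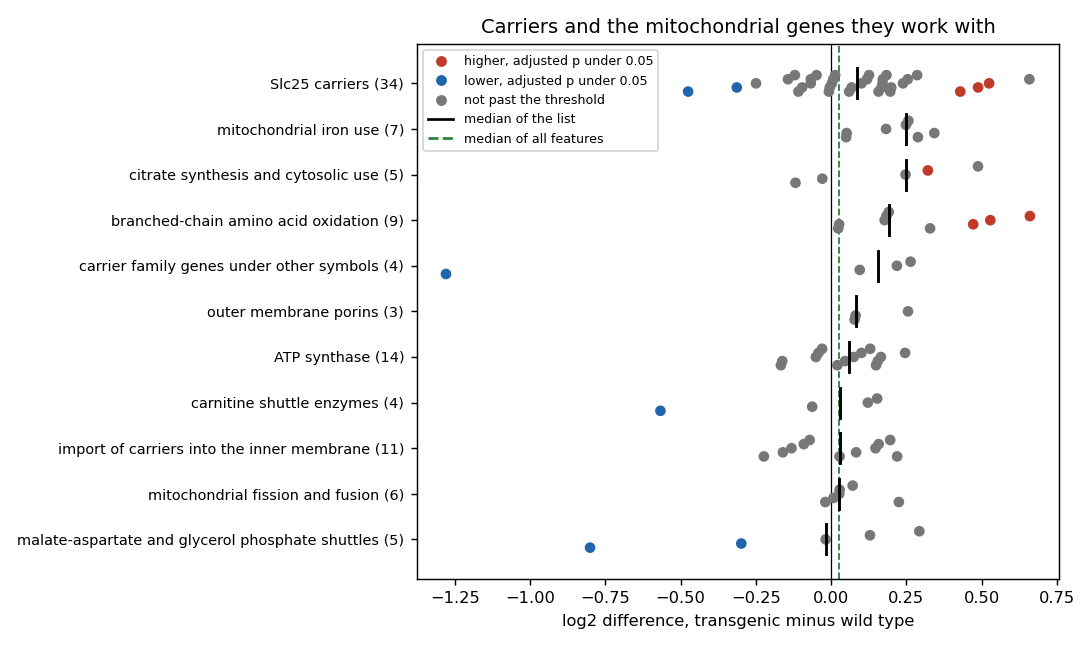
Log2 difference, transgenic minus wild type, of each measured gene in 10 lists of mitochondrial partners and in the 34 carriers, with list medians (black bars) and the median of all features (dashed green line, 0.03). Red and blue points passed an adjusted p of 0.05, and the branched-chain list holds 3 of the red points.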

How the data were processed

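Illumina bead arrays read the RNA of 6 tissue samples. The deposited table gives linear probe intensities for 45281 probes. The authors quantile-normalized them, as judged from the deposited intensities, whose sorted values differ by at most 0.157 between arrays. They are not background-subtracted (lowest value 32.4), which understates folds of dim genes, and quantile normalization hides any change common to most genes. The scanner's own table was left out, because its 24 value columns carry the names of 6 positions on 1 chip and none matches a sample label.

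Background was the mode of all log2 intensities (47.8), and the threshold the mode plus 1.645 times the root mean square deviation of values below it (55.7). Of all probes 22033 (48.7%) exceeded it on 3 or more arrays. Probes were named by the platform annotation, which can be old (1 gene for 34885 probes, several for 18, none for 10378). All 34 measured carriers kept their symbol in the GRCm38.p6 gene table. Log2 intensities of the probe of highest mean per gene went into limma (version 3.58.1, R 4.3.3; lmFit and eBayes), with Benjamini-Hochberg adjustment over 14959 features and a threshold of 0.05. The number of arrays limits the precision. Members, lists, pairs and the threshold were chosen with earlier results of these data known. Genes named are all carriers, Cisd1, the uncoupling proteins, and from each partner list those called and up to 3 of smallest p. Acly, Mdh2, Gpd1 and the cell type markers Pparg, Slc2a4, Lep, Plin1, Cox7a1, Cidea and Cdh5 fall outside this rule and were named after their values were seen. Same-numbered arrays deviated together with correlations of 0.41, 0.22 and −0.03, so the numbers were not taken as pairs. Ucp2 was not analysed here.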

Additional observations from a re-analysis of the deposited data

How the results depend on the processing

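Counts moved most when arrays were left out. With 1 array left out in turn, 0 to 2083 features and 0 to 4 carriers were called; without transgenic array 2 no feature passed in limma (3580 at an unadjusted p under 0.05), and without wild type array 2 there were 306. Without both wild type array 2 and transgenic array 1 there were 350 features and 0 carriers (5 carriers at an unadjusted p under 0.05 in limma). Background subtraction with an offset of 16 left 1 carrier (5 with the offset alone) and centring 3, and adding the family genes under other symbols gave 6. With the replicate number as a block (replicate block), 2391 features and 3 carriers passed, without the calls of Slc25a37 and Slc25a42. Array weights gave 7 carriers, the 5 called and Slc25a10 and Slc25a12. No named carrier or partner gene called in the main comparison changed direction in any of these fits. The cell type markers Pparg, Slc2a4, Lep, Plin1, Cox7a1 and Cdh5 were not followed through them. Some carriers that were not called did change direction. Slc25a15 was 0.033 with centring, 0.058 with the mean of probes, 0.12 with probes apart and 0.031 with array weights, and Slc25a28 was 0.030 with centring. Without both arrays Slc25a23 was −0.10, Slc25a28 0.044, Slc25a35 −0.083, Slc25a39 −8.79e-05, Slc25a44 −0.024, Slc25a45 0.048 and Slc25a51 −0.19. Not all of these were near 0 in the main comparison, where Slc25a39 was 0.17, Slc25a44 0.16 and Slc25a45 −0.12. Single exclusions ran from −0.040 to 0.019 for Slc25a15, −0.11 to 0.085 for Slc25a23, −0.055 to 0.029 for Slc25a28, −0.16 to 0.10 for Slc25a30, −0.0092 to 0.12 for Slc25a32, −0.25 to 0.015 for Slc25a34, −0.051 to 0.12 for Slc25a35, −0.32 to 0.013 for Slc25a45 and −0.14 to 0.14 for Slc25a51. The ratio of Slc25a24 to Slc25a25 ran from −0.031 to 0.084, and the other 5 pairs kept their direction in every fit run on them. The cause of these changes was not tested. The slide as a block was not run, since chip positions could not be assigned to samples.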
